A study of Mus musculus with 12 samples.

Results

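The genes described here are 32 genes of the unfolded protein response and the integrated stress response, taken by name from the 55401 genes of a liver RNA-seq count table and split by role into 6 sensors and transcription factors, 14 chaperones and folding enzymes, 6 degradation genes and 6 Atf4 targets and outputs. They were chosen by what the genes are known to do, but earlier results of these data were known when the choice was made. All 32 were found in the table, and 31 were among the 13205 genes with enough reads to be tested, Asns being the exception. The libraries came from whole livers of 15-week-old female mice on a C57BL/6J background, 6 labelled iTgMir483 (over-expressor) and 6 labelled control. iTgMir483 mice carried 1 copy of a Tet-off Mir483 transgene, with its tetracycline-controlled transactivator in the same insert, at the ubiquitously active Rosa26 locus. The transgene came from heterozygous males whose selection cassette was deleted in the offspring by crossing to females homozygous for CMV-Cre. Doxycycline in the drinking water kept the transgene off during pregnancy and was then withdrawn, so that the transgene could be expressed from birth, in all tissues and not in hepatocytes alone. The library names of both groups begin with CMVxmiR, and the labels give the controls no genotype beyond "control". Whether the controls carried the Cre allele is not stated for these mice.

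The unfolded protein response adjusts the endoplasmic reticulum (ER) to its load of secretory protein. The ER membrane sensors PERK (encoded by Eif2ak3), IRE1α (Ern1) and ATF6 are held inactive by the chaperone BiP (Hspa5) and are released when unfolded protein accumulates, after which the factors XBP1, ATF6 and ATF4 raise the transcripts of chaperones and of ER-associated degradation genes. Phosphorylation of eIF2α by PERK or by other kinases lowers general translation but favours translation of Atf4 mRNA, and this shared branch is called the integrated stress response. Hepatocytes secrete most plasma proteins and express the folding machinery at high levels.

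Reads assigned to the Mir483 gene (ENSMUSG00000070140, chr7:142654924-142654996, minus strand), the overexpressed gene, were absent in all 6 controls, where a count of 0 allows up to 3 counts per library. Levels are given in CPM, the count divided by the TMM-scaled library size and multiplied by 1000000. Mir483 was at 23.3 to 54.3 CPM in the iTgMir483 livers, with a median of 35.4 CPM. The libraries were made from poly(A) RNA, so these reads do not measure the mature microRNA. Library totals ran from 12244123 to 30431286 counts, the deepest being control 4. Over all genes, 1110 were called higher and 360 lower in iTgMir483, where a call required an adjusted p under 0.05 from edgeR's quasi-likelihood test and a fold change over 1.5. The summed level of 7 hepatocyte markers was 121228 to 165668 CPM in controls and 62658 to 131879 CPM in iTgMir483, and 0 of 7 were called. Their median log2 fold change was −0.37, and 1 of the 7 values was positive. Markers of other cells moved with the genotype. Of 7 Kupffer cell and macrophage markers 6 were called higher (sums 307 to 456 CPM in controls, 480 to 1316 CPM in iTgMir483), as were 3 of 5 bile duct markers (20.9 to 46.1 against 60.7 to 89.1 CPM) and both neutrophil markers tested (sums over 5 markers 0.684 to 2.44 against 2.22 to 16.0 CPM). iTgMir483 liver 4 stood apart in the Kupffer cell and macrophage sum, at 1316 CPM against 480 to 665 CPM in the other 5 iTgMir483 livers. It also had the lowest hepatocyte sum, 62658 CPM, with liver 1 next at 65490 CPM. Of the markers tested, 0 of 6 for stellate cells, 0 of 6 for sinusoidal endothelium, 0 of 3 for plasma cells and 0 of 1 for exocrine pancreas were called. In whole-liver RNA, fewer cells of a type and less RNA per cell cannot be told apart, and the part of these cells in the values below was not tested.

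Both stress responses have well known promoter elements, and these are shown first because they group the members independently of their levels. The members were chosen by their known roles in these responses, so the shares of motif holders among them are a description and not a test. RefSeq promoter windows (GRCm38.p6, 250 bases before to 50 after a start site) matched 28 of the 32 members by symbol; Hyou1, Atf6, Manf and Derl1 have no window here. The ER stress response element (ERSE, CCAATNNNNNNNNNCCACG), the element bound by NF-Y with ATF6 or XBP1, was searched on both strands. It was found in 9 of 28 members, against 0.119% of all 32851 windows and 37 of 27025 genes. Its holders were 7 of 12 chaperone genes and 2 of 5 degradation genes, with 0 of 5 sensors and 0 of 6 Atf4 targets. The matches are printed in the direction of the motif, in capitals, with 10 bases on each side.
Calr (chr8:84847065-84847103, plus strand): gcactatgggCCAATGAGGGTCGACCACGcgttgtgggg
Canx (chr11:50325790-50325828, minus strand): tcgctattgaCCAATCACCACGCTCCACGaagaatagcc
Creld2 (chr15:88819510-88819548, minus strand): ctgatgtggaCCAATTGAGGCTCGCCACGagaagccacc
Derl3 (chr10:75893232-75893270, minus strand): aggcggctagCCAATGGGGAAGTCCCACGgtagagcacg
Dnajc3 (chr14:118937817-118937855, plus strand): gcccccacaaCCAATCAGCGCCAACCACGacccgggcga
Hsp90b1 (chr10:86705628-86705666, minus strand): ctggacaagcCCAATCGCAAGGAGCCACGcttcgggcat
Hsp90b1 (chr10:86705523-86705561, plus strand): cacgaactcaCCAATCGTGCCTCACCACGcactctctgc
Hspa5 (chr2:34772015-34772053, plus strand): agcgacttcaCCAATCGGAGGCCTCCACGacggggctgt
Pdia6 (chr12:17266481-17266519, plus strand): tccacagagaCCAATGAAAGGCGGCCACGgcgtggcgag
Syvn1 (chr19:6046522-6046560, plus strand): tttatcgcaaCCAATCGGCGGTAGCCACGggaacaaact

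The ERSE of Hspa5 lay 65 to 47 bases before the start, and Hsp90b1 held the motif at 2 places in opposite directions. The related ERSE-II (ATTGGNCCACG) was found in Dnajb11 and Herpud1, and in 0.0365% of all windows. These are the members with the clearest lower value among the chaperones and the highest level per length among the degradation genes.
Dnajb11 (chr16:22857842-22857872, plus strand): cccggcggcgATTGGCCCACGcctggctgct
Herpud1 (chr8:94386367-94386397, plus strand): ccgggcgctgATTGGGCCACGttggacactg

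The C/EBP-ATF response element (CARE, TGATGNAA), through which ATF4 acts, was found in 5 of 28 members, 4 of them among the 6 Atf4 targets, against 3.97% of all windows. The letters TGACGTGG of the unfolded protein response element were found in 0 of 28 members and in 0.676% of all windows. A match is a description of the letters and not a shown binding site.
Asns (chr6:7693215-7693242, minus strand): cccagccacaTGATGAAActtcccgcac
Atf3 (chr1:191183426-191183453, plus strand): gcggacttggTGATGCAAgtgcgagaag
Chac1 (chr2:119351039-119351066, minus strand): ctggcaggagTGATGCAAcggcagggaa
Herpud1 (chr8:94386307-94386334, minus strand): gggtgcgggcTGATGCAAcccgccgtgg
Trib3 (chr2:152344029-152344056, plus strand): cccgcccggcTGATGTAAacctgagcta

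The whole windows of Hspa5, the member read most often as a marker of ER stress, and of Atf3, the member with the largest rise, show where these matches sit. Capitals mark the ERSE in Hspa5 and the CARE, on the opposite strand, in Atf3. The Eif2ak3 window held none of the 4 motifs.
Hspa5 (chr2:34771840-34772139, plus strand): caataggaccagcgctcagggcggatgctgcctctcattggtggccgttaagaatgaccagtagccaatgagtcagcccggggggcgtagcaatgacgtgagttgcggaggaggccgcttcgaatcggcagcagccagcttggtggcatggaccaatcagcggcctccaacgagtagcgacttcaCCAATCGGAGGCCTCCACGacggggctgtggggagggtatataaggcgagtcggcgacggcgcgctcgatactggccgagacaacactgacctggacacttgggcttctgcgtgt
Atf3 (chr1:191183284-191183583, minus strand): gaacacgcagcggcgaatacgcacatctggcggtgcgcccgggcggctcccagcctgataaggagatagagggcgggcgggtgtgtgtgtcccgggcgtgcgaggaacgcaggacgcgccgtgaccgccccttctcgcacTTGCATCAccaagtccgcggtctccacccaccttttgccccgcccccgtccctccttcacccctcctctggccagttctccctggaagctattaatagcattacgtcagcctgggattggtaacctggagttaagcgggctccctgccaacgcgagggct

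Of the 31 members tested, 2 rose in iTgMir483 livers, Eif2ak3 and Atf3, and 0 fell. The background over all 13205 genes was 8.41% called higher and 2.73% called lower. By adjusted p alone, with no fold threshold, 3 members were higher (Derl1 besides these) and 2 were lower (Dnajb11 and Pdia3), against 11.3% and 7.33% of all genes. At an unadjusted p under 0.05, 6 members were higher and 4 lower by edgeR, against 18.6% and 14.8% of all genes. DESeq2 and limma-voom each called 1 lower, Dnajb11. The median log2 fold change over the 31 members was −0.17, beside 0.01 over all genes tested, and 8 of 31 values were positive. The 12 livers did not overlap between groups for 2 members on the higher side (Eif2ak3 and Derl1) and for 1 on the lower side (Dnajb11), against 5.09% and 2.83% of all genes. The role groups differed in their medians, from −0.34 for the chaperones to −0.09 for the degradation genes, −0.04 for the sensors and factors and 0.51 for the Atf4 targets.

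**Figure D1:**
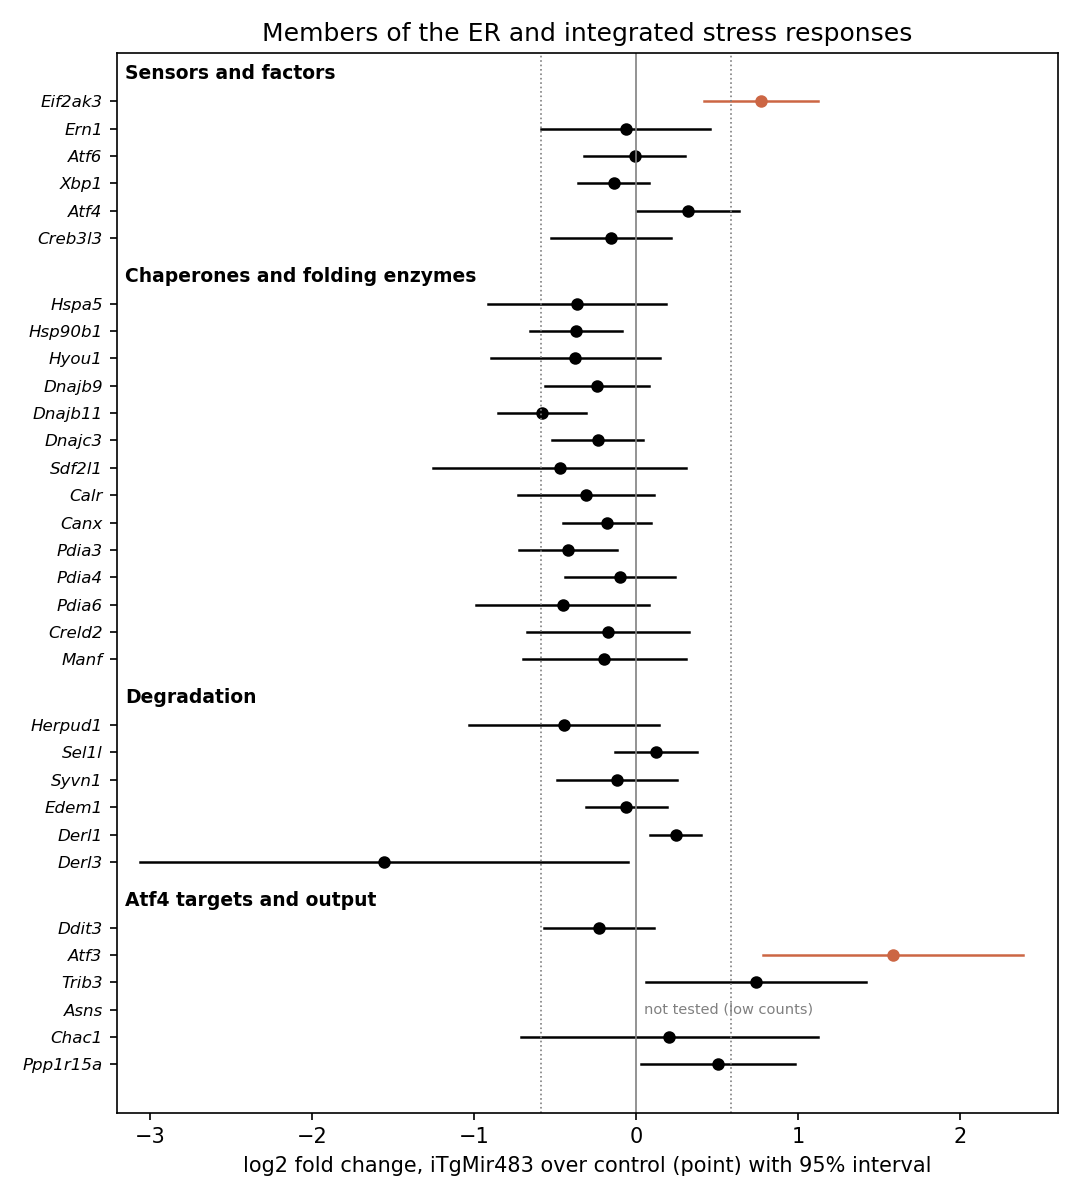
Log2 fold change of each member (iTgMir483 over control, x axis, point) with its 95% interval from edgeR, in role groups. Dotted lines mark a fold change of 1.5 in either direction and coloured points the members called. Eif2ak3 and Atf3 lie to the right, all 14 chaperone points lie left of 0, and Asns was not tested.

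Among the sensors, Eif2ak3 (ENSMUSG00000031668, chr6:70844515-70905245, plus strand), which encodes PERK, was the only member of its group to be called. Its level was 11.9 to 14.4 CPM (median 14.1) in the 6 controls and 14.9 to 31.4 CPM (median 26.0) in the 6 iTgMir483 livers. The controls were tightly grouped, with a coefficient of variation of 6.96%, whereas the iTgMir483 livers split into livers 1 and 2, at 16.0 and 14.9 CPM just above the highest control, and the other 4, at 25.2 to 31.4 CPM. edgeR's quasi-likelihood test gave a 1.71-fold higher level (log2 0.77, SE 0.165, 95% interval 0.42 to 1.13, adjusted p = 0.00598). It passed both thresholds under all 22 alternatives, at log2 0.67 to 0.99 and adjusted p from 5.94e-05 to 0.0142. The levels of Eif2ak3 and of Mir483 reads, which do not measure the mature microRNA, did not follow 1 order among the iTgMir483 livers. Mir483 was highest in liver 2 (54.3 CPM), which was lowest in Eif2ak3, and next highest in liver 6 (47.8 CPM), which was highest in Eif2ak3, while liver 1 was low in both (27.2 CPM of Mir483).

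The transcripts of the other sensors did not pass the test. Ern1, the kinase and endonuclease that splices Xbp1 mRNA, stood at 45.2 to 105 CPM in controls and at 28.5 to 94.0 CPM in iTgMir483, with log2 −0.06 (interval −0.59 to 0.46, adjusted p = 0.879, edgeR). Its extremes were control 1 at the top and iTgMir483 liver 2 at the bottom, and the sign of its fold change turned without either library. Atf6, the sensor that is cleaved to a transcription factor in the Golgi, had log2 −0.01 (interval −0.32 to 0.30, adjusted p = 0.972).

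The factors downstream of the sensors were also past neither threshold. Xbp1 was at 132 to 167 CPM in controls and 118 to 161 CPM in iTgMir483, with log2 −0.14 (interval −0.36 to 0.08, adjusted p = 0.371, edgeR). Gene-level counts do not separate spliced from unspliced Xbp1 mRNA, so IRE1α activity was not measured here. Atf4, the translated effector of the integrated stress response, was at 65.9 to 108 CPM (median 76.7) in controls and at 75.3 to 126 CPM (median 96.6) in iTgMir483, with log2 0.32 (interval 0.01 to 0.64, adjusted p = 0.144). Its highest levels were in iTgMir483 livers 2 and 1 (126 and 123 CPM), and control 1 (108 CPM) stood above 4 of the iTgMir483 livers. Without control 1 the adjusted p of Atf4 was 0.0428, at log2 0.42, still under the fold threshold, and it ranged from 0.0428 to 0.562 over the alternatives. Creb3l3, which encodes the liver factor CREBH, had the highest control level per length of its group, 183 CPM per kilobase of exon, and log2 −0.16 (interval −0.53 to 0.21, adjusted p = 0.564).

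The 14 chaperones and folding enzymes all had negative log2 fold changes, from −0.58 to −0.10 with a median of −0.34, and 0 of 14 were called. By adjusted p alone 2 were lower, Dnajb11 and Pdia3, and by unadjusted p under 0.05 there were 3, where 14.8% of all genes were lower. The upper end of the 95% interval, taken gene by gene and not adjusted for the number of genes, was at most 0.33 for all 14, below the 0.58 that a rise of 1.5-fold would require. The genes share their livers and their order in them, so the 14 signs are not 14 separate observations. iTgMir483 liver 2 was the lowest of its group for 11 of the 14 genes and control 2 the lowest of the controls for 10 of 14. Without iTgMir483 livers 1 and 2, an alternative chosen after the values were seen, the median of the 14 was −0.16, and over all 22 alternatives it ran from −0.42 to −0.16.

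Dnajb11 (ENSMUSG00000004460, chr16:22857845-22879634, plus strand), an ER co-chaperone that hands substrates to BiP, was the chaperone with the clearest difference. Its level was 59.2 to 85.1 CPM (median 72.4) in controls and 38.4 to 58.3 CPM (median 47.8) in iTgMir483, so the groups did not overlap. The iTgMir483 level was 0.668 of the control level in the fit, just short of the fold threshold (log2 −0.58, SE 0.127, adjusted p = 0.00669, edgeR quasi-likelihood test). Its adjusted p was under 0.05 in all 22 alternatives and it passed the fold threshold as well in 11 of them. An antisense gene on the opposite strand, Gm30505, overlaps it with 4588 counts over the 12 libraries beside 11534 for Dnajb11, and the strand setting of the counting is not given in the sources used here.

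Pdia3 (ENSMUSG00000027248, chr2:121413775-121438687, plus strand), the disulfide isomerase that works with calnexin and calreticulin on glycoproteins, stood at 204 to 370 CPM (median 293) in controls and at 169 to 246 CPM (median 222) in iTgMir483. Only control 2, at 204 CPM, lay within the range of the iTgMir483 livers. The difference was log2 −0.42 (SE 0.140, adjusted p = 0.0499, edgeR), and the adjusted p was under 0.05 in 4 of 22 alternatives, with a range of 0.0158 to 0.145.

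Hspa5 (ENSMUSG00000026864, chr2:34771970-34777547, plus strand), encoding BiP, the ER Hsp70 that binds unfolded chains and restrains the sensors, was at 331 to 759 CPM (median 654) in controls and at 246 to 599 CPM (median 527) in iTgMir483. The lowest livers of both groups were set apart, controls 1 and 2 at 331 and 453 CPM and iTgMir483 livers 1 and 2 at 246 and 274 CPM, and the groups overlapped. The difference was log2 −0.36 (SE 0.257, interval −0.91 to 0.19, adjusted p = 0.347, edgeR). Hsp90b1, the ER Hsp90 (GRP94), was less variable, at 531 to 750 CPM in controls and 402 to 588 CPM in iTgMir483, with log2 −0.37 (interval −0.65 to −0.09, adjusted p = 0.0652), and by DESeq2 its adjusted p was 0.0198.

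The remaining chaperones had adjusted p-values from 0.222 to 0.703. Hyou1, the nucleotide exchange factor of BiP, had log2 −0.37 and was lowest in iTgMir483 liver 2 (37.5 CPM, against 80.4 to 131 CPM in controls). The lectin chaperones Calr and Canx had log2 −0.31 and −0.18, and the isomerases Pdia6 and Pdia4 −0.45 and −0.10. The co-chaperones Dnajb9 and Dnajc3, of which Dnajc3 also inhibits eIF2α kinases, had −0.24 each. Manf, a secreted BiP cofactor, had −0.20 and Creld2, another secreted ER stress protein, −0.17. The gene of Manf overlaps Dcaf1 on the opposite strand and Rbm15b on the same strand, so its counts are uncertain.

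A few of these values rested on control 1. In that library Sdf2l1, a stress-induced partner of BiP cofactors, reached 22.0 CPM, while the remaining 5 controls lay between 3.34 and 7.52 CPM, and Pdia6 reached 288 CPM, while they lay between 92.1 and 135 CPM. Without control 1 the log2 fold change of Sdf2l1 went from −0.47 to 0.03 and that of Pdia6 from −0.45 to −0.14. The same library was high in Dnajc3 (306 CPM) and Canx (270 CPM) but the lowest control in Hspa5. It was the highest control for 5 of the 14 chaperones and the lowest for 3. Its mean log2 difference from the control mean over the chaperones was 0.11, against −0.41 to 0.16 in the other 5 controls. Its summed exocrine pancreas markers were 14.4 CPM, the highest of the 12 libraries, which otherwise ranged from 4.11 to 12.1 CPM, with Cpa1 at 0 in all 12. Its summed plasma cell markers were 287 CPM, the lowest of the controls. Only 3 of 7 plasma cell and 1 of 7 exocrine pancreas markers had enough reads to be tested. Each sum thus rests on few genes and may not follow its cell type. The part of either cell type in these values was not tested.

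**Figure D2:**
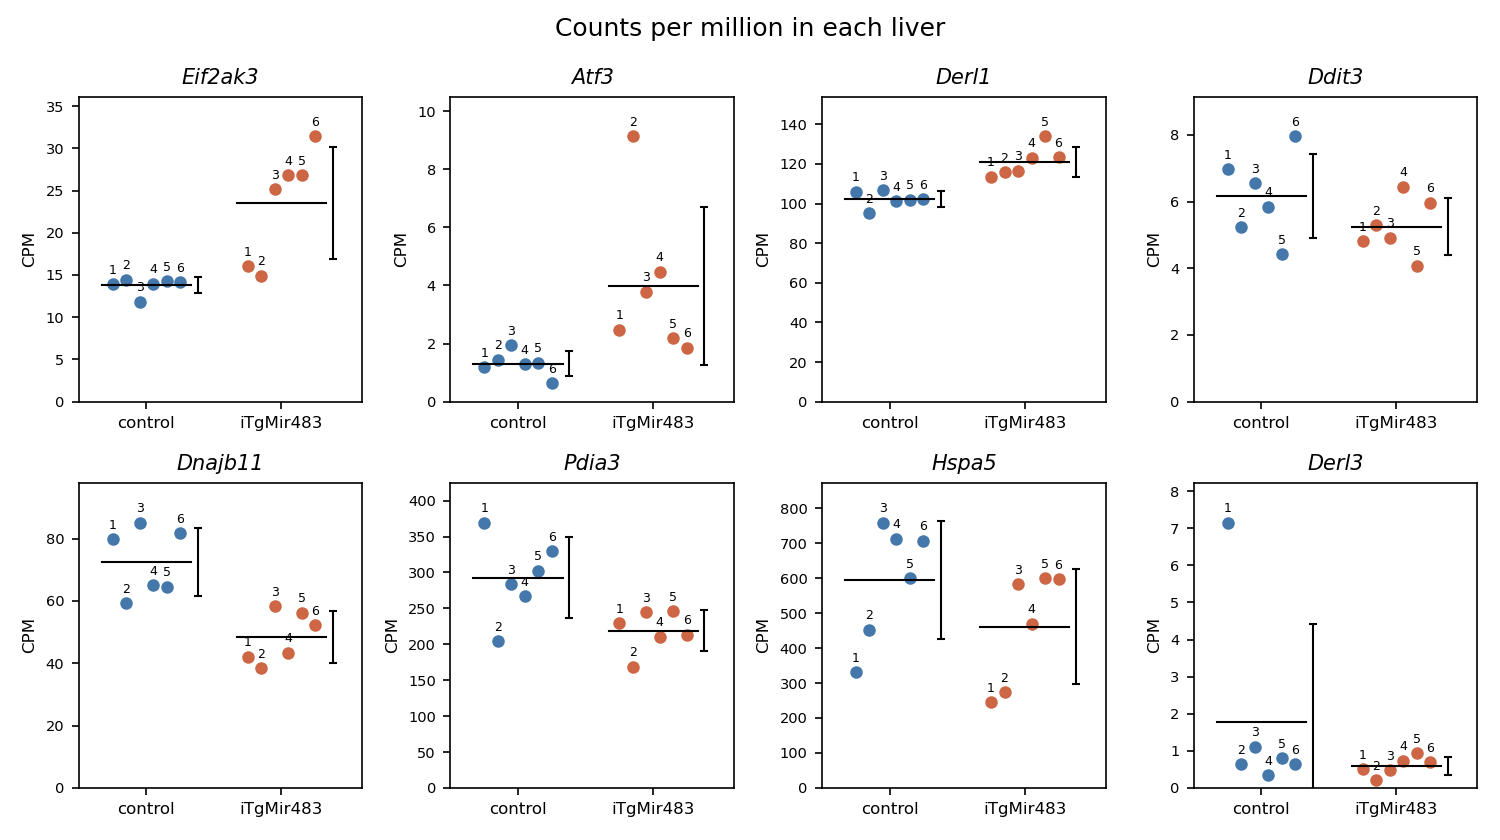
CPM of 8 members in each liver (y axis from 0), controls on the left and iTgMir483 on the right of each panel, numbered by replicate, with the group mean (line) and SD (bar). Eif2ak3, Derl1 and Dnajb11 do not overlap between groups, and iTgMir483 liver 2 stands alone in Atf3 at 9.14 CPM and control 1 in Derl3 at 7.15 CPM, where the lower end of the SD bar falls below the axis.

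The 6 degradation genes had a median log2 fold change of −0.09, and edgeR called 0 of 6 (1 higher and 1 lower at an unadjusted p under 0.05, against 18.6% and 14.8% of all genes). Derl1 (ENSMUSG00000022365, chr15:57869502-57892448, minus strand), a membrane protein of the channel through which misfolded proteins leave the ER, was at 95.2 to 107 CPM (median 102) in controls and at 114 to 134 CPM (median 120) in iTgMir483. The groups did not overlap, but the difference was small, 1.18-fold (log2 0.24, SE 0.0737, adjusted p = 0.0324, edgeR), and its adjusted p was under 0.05 in 13 of 22 alternatives. The coefficient of variation of Derl1 over the controls was 4.08%, the lowest of all members.

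Its paralogue Derl3, found mostly in secretory cells, was rare in liver, at 0.894 CPM per kilobase in controls. It reached 7.15 CPM in control 1 but lay between 0.342 and 1.12 CPM in the other 5 controls and between 0.214 and 0.940 CPM in iTgMir483. Its log2 fold change of −1.56 (adjusted p = 0.138, edgeR) became −0.20 without control 1.

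Herpud1, an adaptor of the degradation complex and a sensitive ER stress target, had the highest control level per length of all 32 members, 189 CPM per kilobase. It was at 290 to 526 CPM (median 473) in controls and at 179 to 618 CPM (median 276) in iTgMir483, with log2 −0.44 (SE 0.275, adjusted p = 0.279, edgeR). The iTgMir483 livers spanned the controls on both sides, with livers 1, 2 and 6 at 179, 204 and 215 CPM and liver 4 at 618 CPM. Without iTgMir483 liver 4, the liver that also stood apart in macrophage markers, it was called lower, at log2 −0.73 and adjusted p = 0.0353, and over the alternatives its adjusted p ran from 0.0353 to 0.638. The core ligase pair showed little difference, Sel1l with log2 0.12 (interval −0.13 to 0.38) and Syvn1, its catalytic partner, with −0.12 (interval −0.49 to 0.25). Edem1, which marks glycoproteins for degradation, had −0.06 (interval −0.31 to 0.19).

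Among the Atf4 targets and outputs 5 of 6 were tested and 1 rose, Atf3 (ENSMUSG00000026628, chr1:191170296-191218039, minus strand), a stress-induced factor of the ATF family that is also an immediate early gene. Atf3 was rare, at 0.640 to 1.95 CPM (median 1.32) in controls and 1.86 to 9.14 CPM (median 3.13) in iTgMir483. The ranges overlapped by control 3 (1.95 CPM) and iTgMir483 liver 6 (1.86 CPM) only, and liver 2 (9.14 CPM) stood well above the next, liver 4 (4.47 CPM). Atf3 rose by 1.59 on the log2 scale (SE 0.375, interval 0.78 to 2.39, adjusted p = 0.0102, edgeR quasi-likelihood test). It passed both thresholds in all 21 alternatives in which it was tested, at log2 0.96 to 1.73 and adjusted p from 4.39e-04 to 0.0364. Its lowest value came without iTgMir483 livers 2 and 4, and with at least 10 counts required in every library it was not tested.

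Other immediate early genes were, in sum, highest in the same livers as Atf3, iTgMir483 livers 2 and 4. Of 11 tested on a list without Atf3, 4 were called higher, among them Btg2 (log2 1.96), Jun (1.44) and Ier3 (1.25), where 8.41% of all genes were. All 11 values were positive with a median of 0.84. Their summed level was 629 CPM in iTgMir483 liver 2 and 626 CPM in liver 4, against 204 to 299 CPM in controls and 169 to 315 CPM in the other 4 iTgMir483 livers. Livers 2 and 4 were also the highest in Atf3 (9.14 and 4.47 CPM) and in Ppp1r15a (26.3 and 24.4 CPM). Without livers 2 and 4, Atf3 was at log2 0.96 (adjusted p = 0.0364, edgeR). The mean log2 difference of the immediate early genes from the control mean was still 0.42 to 0.53 in livers 3, 5 and 6. In liver 1 it was −0.15, while Atf3 there, at 2.47 CPM, was above every control. The part of the immediate early response in the Atf3 value was not tested.

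The other Atf4 targets were past neither threshold. Ddit3 (ENSMUSG00000025408, chr10:127290774-127296288, plus strand), encoding CHOP, the factor most tied to cell death in prolonged ER stress, was at 4.42 to 7.95 CPM (median 6.20) in controls and at 4.07 to 6.45 CPM (median 5.10) in iTgMir483. The groups overlapped from 4.42 to 6.45 CPM. Controls 1, 3 and 6 (6.96, 6.55 and 7.95 CPM) lay above every iTgMir483 liver, and iTgMir483 liver 5 (4.07 CPM) lay below every control. The difference was log2 −0.23 (SE 0.160, adjusted p = 0.341, edgeR), with an interval of −0.57 to 0.11 that holds a change of 1.5-fold in neither direction. Ddit3 overlaps Mars on the opposite strand, which had 11117 counts over the 12 libraries against 1072 for Ddit3, so that a small share of Mars reads would weigh on it. Mars itself had log2 −0.46 (adjusted p = 0.0108, edgeR), and its part in the Ddit3 value was not tested.

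Trib3, a pseudokinase induced by ATF4 and CHOP, was at 4.03 to 11.6 CPM (median 7.07) in controls and at 3.88 to 19.9 CPM (median 13.2) in iTgMir483, with log2 0.74 (SE 0.318, adjusted p = 0.119, edgeR). Liver 4, among the highest in Atf3, Ppp1r15a, Chac1 and macrophage markers, was the lowest of all 12 for Trib3, and without it the gene was called higher (log2 0.92, adjusted p = 0.0227, within a range of 0.0227 to 0.241 over the alternatives). Ppp1r15a, encoding GADD34, which restores translation by dephosphorylating eIF2α, was at 9.15 to 16.6 CPM in controls and 10.8 to 26.3 CPM in iTgMir483, with log2 0.51 (SE 0.222, adjusted p = 0.126). Its log2 fold change was 0.15 without iTgMir483 livers 2 and 4.

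Chac1, a glutathione-degrading enzyme and ATF4 target, had log2 0.21 with a wide interval (−0.71 to 1.12, adjusted p = 0.775, edgeR), and iTgMir483 liver 4 alone reached 2.93 CPM. Asns, asparagine synthetase, had the lowest level per length of all members, 0.112 CPM per kilobase in controls. It lay between 0.0575 and 0.690 CPM in controls and between 0.125 and 0.240 CPM in 5 iTgMir483 livers, with 2.17 CPM in liver 6, and it was not tested.

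**Figure D3:**
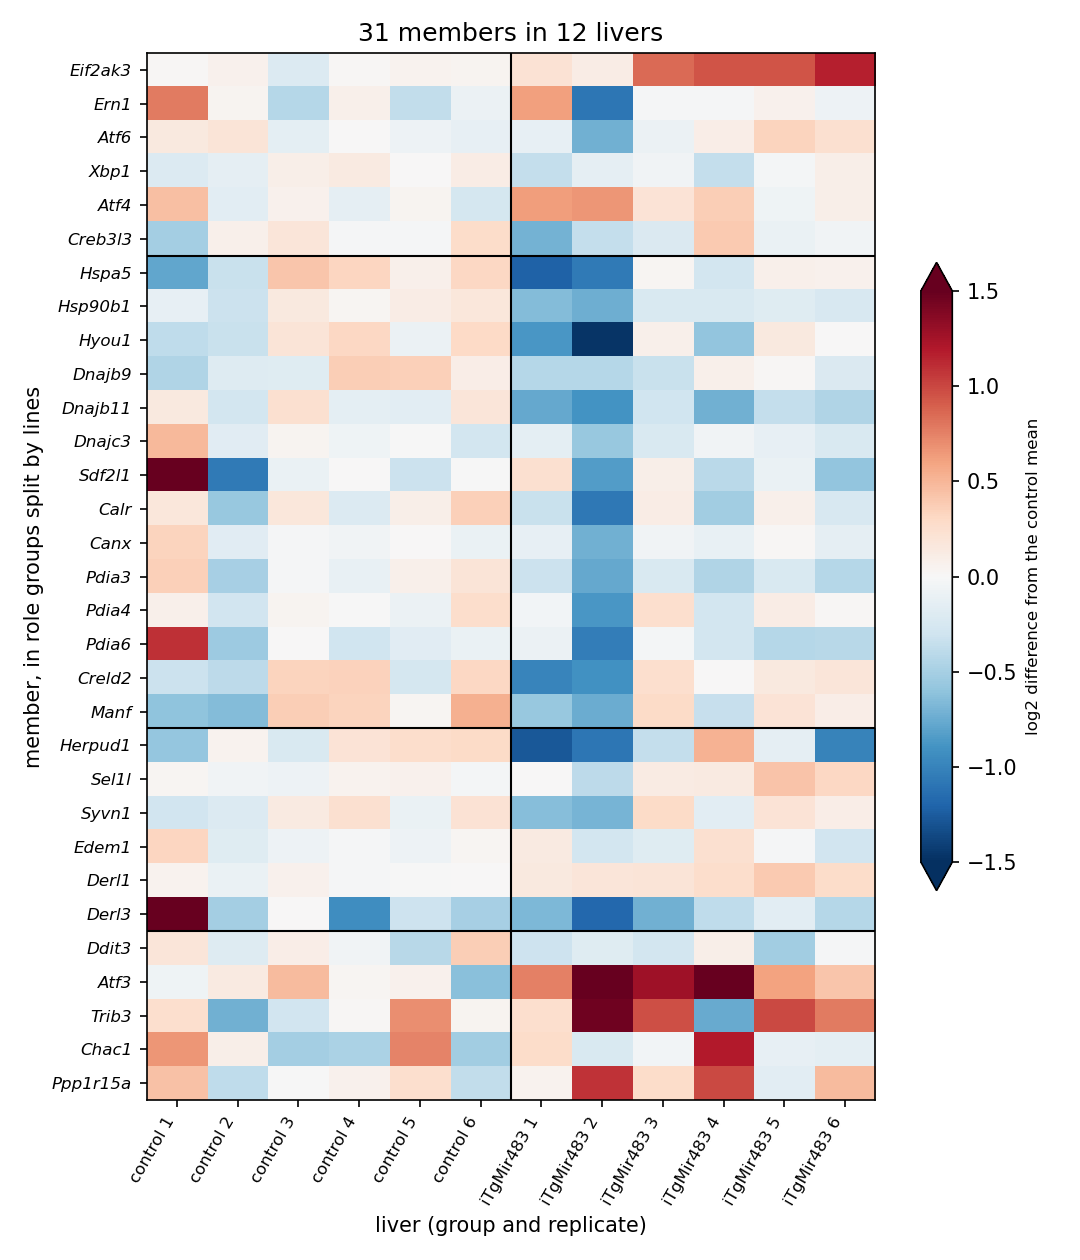
Log2 difference of each tested member (rows, in role groups) from its control mean in each of the 12 livers (columns), computed on CPM plus 0.5, with colours cut off at 1.5 in either direction. Blue columns among the chaperones stand at iTgMir483 livers 1 and 2 and, more faintly, at control 2. Red cells stand at Eif2ak3 in iTgMir483 livers 3 to 6 and at Atf3 in all 6.

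The chaperones varied between livers within each group. The mean log2 difference from the control mean over the 14 chaperones was −0.41 in control 2 and between −0.03 and 0.16 in the other 5 controls. In iTgMir483 it was −0.87 in liver 2, −0.45 in liver 1, −0.30 in liver 4 and between −0.19 and −0.02 in the other 3. Over the 5 Atf4 targets tested it was −0.22 to 0.30 in controls and 0.16 to 0.92 in iTgMir483, the highest again in liver 2, the liver with the lowest chaperone level. The 2 groups of members thus stood at opposite ends in that liver, which alone was the lowest of its group for 18 of the 31 members tested.

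The 9 members that hold an ERSE, 7 of which are chaperones already described, were not called. All 9 had negative log2 fold changes, from −1.56 (Derl3) to −0.12 (Syvn1) with a median of −0.31. Outside the members, 10 other genes with an ERSE in their window were tested, 7 of them had positive values with a median of 0.21, and 1 was called lower. That gene, named after its value was seen, was Acnat2, an acyl-CoA amino acid N-acyltransferase (log2 −2.28, adjusted p = 2.25e-04, edgeR). Of 279 other genes with a CARE, 30 were called higher and 14 lower, where 8.41% and 2.73% of all genes were. Their median was 0.04, and of the 4 members with a CARE that were tested 1, Atf3, was called.

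Other genes of the same pathways, taken from 7 lists of 115 genes outside the members, were read with the same test. Of 110 tested, 5 were called higher and 1 lower, 56 values were positive and the median was 0.00, compared with 2 higher and 0 lower of 31 members. Over all genes 8.41% were called higher and 2.73% lower. Among 15 other sensors, eIF2 kinases and bZIP factors 1 rose, Creb3l1 (OASIS, log2 0.83, adjusted p = 0.0491, edgeR). Of 23 other chaperones and folding enzymes 2 rose, the prolyl isomerases Fkbp11 (3.75 ± 0.935 against 10.6 ± 2.83 CPM, SD, n = 6, log2 1.51, adjusted p = 4.76e-04 by edgeR) and Fkbp14 (log2 0.60). The groups did not overlap for Fkbp11. Their list had a median of 0.08, with 13 of 23 values positive, beside −0.34 and 0 of 14 for the member chaperones. None of 20 translocon and secretory genes and none of 20 other degradation genes was called (medians 0.00 and 0.01). Without the fold threshold 1 and 3 of them were lower by adjusted p, against 7.33% of all genes.

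Genes of the wider Atf4 program were called in both directions, where 8.41% of all genes were called higher and 2.73% lower. Of 12 genes for amino acid synthesis and transport 1 fell, Cth, the last enzyme of cysteine synthesis (800 ± 144 against 409 ± 86.6 CPM, SD, n = 6, log2 −0.97, adjusted p = 0.00195 by edgeR), and the median was 0.00. The 12 aminoacyl-tRNA synthetases all had negative values with a median of −0.18, and 0 of 12 were called. By adjusted p alone 2 of 12 were lower, where 7.33% of all genes were. Of 8 stress and secreted factors 2 rose, the lipoprotein receptor gene Vldlr (log2 1.24, adjusted p = 0.0142) and Pck2, mitochondrial phosphoenolpyruvate carboxykinase (log2 0.86, adjusted p = 0.00138), with 7 of 8 values positive and a median of 0.67. Of 8 targets of Creb3l3, itself at log2 −0.16, 1 rose and 1 fell, the apolipoprotein gene Apoa4 (log2 2.14, adjusted p = 0.0146) and the acute phase gene Crp (log2 −0.61, adjusted p = 0.00775).

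Chaperones outside the ER were on the lower side too. Of 12 cytosolic heat shock genes 2 fell, Hsph1 (log2 −1.30, adjusted p = 0.0242, edgeR) and Hsp90aa1 (log2 −1.03, adjusted p = 0.00663), with 0 of 12 values positive and a median of −0.40. By adjusted p alone 4 of 12 were lower. None of 8 mitochondrial chaperones and proteases was called, but 0 of 8 values were positive, with a median of −0.28, and 4 of 8 were lower by adjusted p alone. Over all genes 2.73% were called lower and 7.33% were lower by adjusted p alone. Genes of a list share their livers, so their signs are not separate observations. The lists of 12 circadian clock genes and 10 fasting genes, both of which vary with the time and state at which a liver is taken, had 0 called and medians of −0.16 and 0.11.

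**Figure D4:**
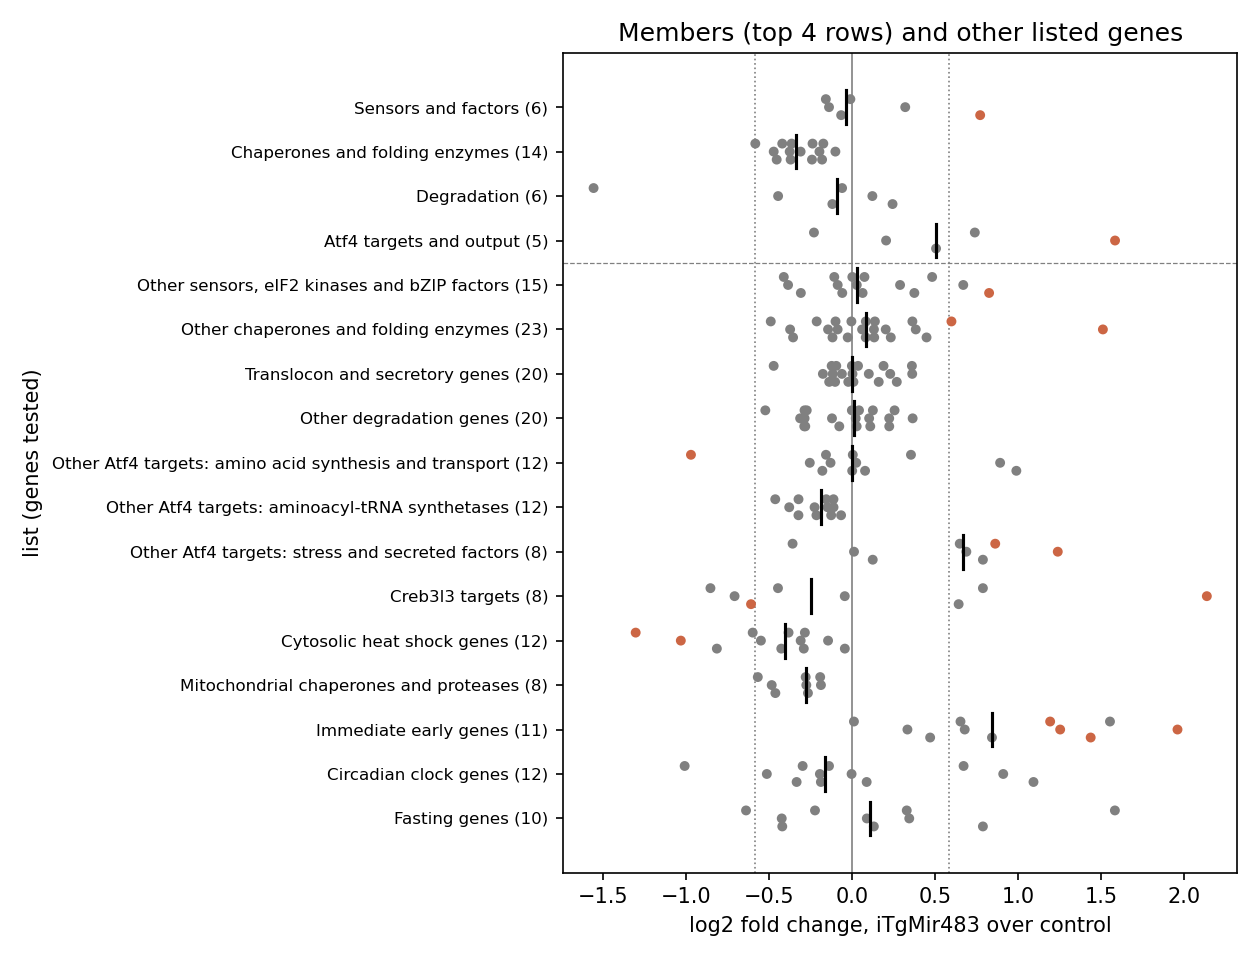
Log2 fold change (iTgMir483 over control, x axis) of every tested gene in the 4 member groups (top) and in 13 other lists, 1 point per gene with the number tested in brackets, coloured where called, with the list median as a vertical bar and dotted lines at a fold change of 1.5. The member chaperones, the cytosolic heat shock genes and the mitochondrial chaperones lie left of 0, and the immediate early genes lie to its right.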

How the data were processed

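Poly(A) RNA of 12 female livers was sequenced from stranded TruSeq libraries (NovaSeq, paired reads). The authors aligned the reads with STAR to GRCm38 and deposited raw counts per Ensembl gene, 1 column per library, and the unit used here is these counts as deposited. The strand setting of the counting is not given in the sources used here. Reads shared by overlapping genes or close copies may therefore be split or dropped, and no transcript isoforms are resolved. Library totals were 12244123 to 30431286 counts.

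Symbols, positions and exon lengths came from GENCODE M21 (GRCm38), which named 55141 of 55401 IDs. Ddit3 has a second ID, at 0 in all libraries, which was not used. Genes were filtered with filterByExpr, scaled by TMM and tested in edgeR 4.0.16 (R 4.3.3) by the quasi-likelihood test, 6 against 6, with Benjamini-Hochberg adjustment over 13205 genes and no covariates. A call needed an adjusted p under 0.05 and a fold over 1.5. The script was tested on simulated counts. Alternatives were DESeq2 1.42.0, limma-voom 3.58.1, other scaling and filters, a replicate block, omitted libraries, and adjusted p alone. No 2 libraries agreed within sampling noise. The labels number the replicates without tying them to litters, so p-values measure the spread between these livers. The totals limit the precision of rare genes most.

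All members were described, and of other lists the called genes (the 3 largest changes where more were called). The members, lists and tests were chosen with earlier results of these data known. Promoter windows came from RefSeq.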

Additional observations from a re-analysis of the deposited data

Results flagged for a closer look

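A liver was marked where its gap to the nearest other liver of its group, divided by the group's range, was above Dixon's critical value at the 95% level. This was so in 11 of 62 groups tested, where chance would mark about 1 in 20 groups, or 3.1 of 62. Control 1 was set apart as the highest control in 7 genes, with a gap share of 0.681 for Ern1, 0.652 for Dnajc3, 0.776 for Sdf2l1, 0.696 for Canx, 0.781 for Pdia6, 0.632 for Edem1 and 0.886 for Derl3. Control 3 was set apart as the lowest control for Eif2ak3 (0.803, at 11.9 CPM against 13.9 to 14.4 CPM). Among the iTgMir483 livers, liver 2 was the lowest for Canx (0.746, at 129 CPM against 194 to 216 CPM) and the highest for Atf3 (0.641), and liver 4 was the highest for Chac1 (0.755, at 2.93 CPM against 0.785 to 1.31 CPM). No call of a member was lost without any of these libraries.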

How the results depend on the processing

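Eif2ak3 and Atf3 stayed called under every alternative in which they were tested. With at least 10 counts required in every library, 28 members were tested and 1 was called higher. The 0 members called lower became 1 with RLE size factors, with no filter, with DESeq2, with limma-voom and with the replicate block (Dnajb11 each time), and 2 with adjusted p alone, under which 968 genes in all were lower. Leaving out 1 library at a time gave 0 to 1 (Herpud1 without iTgMir483 liver 4, otherwise Dnajb11). The replicate block left 2 members called higher. Deviations of same-numbered livers correlated at 0.0252 to 0.470, over 0.1 in 2 of 6 pairs, so the numbers were not taken to pair the livers. No member past both thresholds changed sign. With libraries left out (1, or 1 of 3 pairs chosen after the data were seen), signs turned for Ern1 (−0.23 to 0.28), Atf6 (−0.088 to 0.14), Sdf2l1 (−0.65 to 0.14), Pdia4 (−0.18 to 0.079), Creld2 (−0.27 to 0.10), Syvn1 (−0.21 to 0.087), Edem1 (−0.12 to 0.054) and Chac1 (−0.21 to 0.53), all with adjusted p over 0.05 throughout. Atf6 also turned with at least 10 counts in every library (2.7e-04) and without both replicate 1 libraries (0.042). The causes were not tested. Ppp1r15a was called without both replicate 1 libraries (0.69, adjusted p = 0.0462 by edgeR).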
